A study of Homo sapiens with 6 samples.

Results

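The genes described here are 54 genes of the WNT pathway, chosen by symbol from a list of WNT ligands, their receptors and the proteins that carry the signal. Of these, 42 were among the 12703 genes analysed. The other 12, which were WNT3, WNT5B, WNT10A, WNT11, FZD9, ROR2, DKK3, SFRP1, NKD1, NKD2, LEF1 and VANGL2, were not analysed here. The comparison asked how the transcripts of PC3 cells differ when GCNT1 is overexpressed. PC3 is an established line of human prostate cancer cells that was grown from a metastasis in bone, and GCNT1 is the glycosyltransferase that builds the core 2 branch of O-glycans. The control group was 3 PC3 lines transduced with negative-control lentiviral particles, and the GCNT1 overexpression (OE) group was 3 PC3 lines transduced with lentiviral particles that carry GCNT1. All 6 lines therefore carry an integrated lentivirus. The labels call them biological replicates, and the sources used here do not give whether each line came from its own transduction, its own clone or its own passage, nor the promoter that drives GCNT1. If the lines of a group share a transduction, a difference between transductions and an effect of GCNT1 cannot be told apart, and the p values measure the spread between these libraries. RNA from each line gave 1 stranded mRNA library.

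The libraries held 12125672 to 12755888 counts in the control group and 11392213 to 13825704 in the GCNT1 OE group. At these depths 3 counts, the detection floor used here, equal 0.217 to 0.263 CPM, the count scaled to a common library size. GCNT1 itself was read at 9, 13 and 8 counts in control libraries 1 to 3 and at 13, 16 and 35 counts in GCNT1 OE libraries 1 to 3. Scaled for depth, GCNT1 OE libraries 1 and 2, at 1.12 and 1.16 CPM, were close to control library 2 at 1.04 CPM, and GCNT1 OE library 3 stood apart at 2.48 CPM. The name GCNT1 OE is thus that of the label, and the GCNT1 counts of libraries 1 and 2 bear it out by a narrow margin. Apart from these counts, the paper checked GCNT1 in its PC3 overexpression cells by real-time PCR, ELISA and immunocytochemistry. All log2 fold changes are given as GCNT1 OE over control, and that of GCNT1 was 0.98 (SE 0.37, adjusted p = 0.0362 by edgeR's quasi-likelihood test), and it fell to 0.49 (adjusted p = 0.269) without GCNT1 OE library 3. The markers KRT8, KRT18, EPCAM and CDH1, which are epithelial, and VIM, which is mesenchymal and known to be high in PC3, were all read, with a summed level of 1559 to 1659 CPM in the control group and 1754 to 1921 CPM in the GCNT1 OE group. VIM was most of that sum and rose by 0.30 on the log2 scale (adjusted p = 8.1e-05 by edgeR). CDH1 fell by 1.71 and KRT18 by 0.18 (adjusted p = 4.7e-05 and 0.00504), while KRT8 was at -0.14 and EPCAM at 0.09 (adjusted p = 0.0829 and 0.645). Of 6 leukocyte and endothelial markers, CD68 and PECAM1 were read and PTPRC, CD3E, VWF and CDH5 were not, and the summed level was 84.8 to 96.3 CPM in the control group and 83.9 to 94.6 CPM in the GCNT1 OE group. CD68 was most of this sum (log2 fold change -0.09, adjusted p = 0.241), and PECAM1 rose from 1.77 ± 0.292 to 4.43 ± 0.603 CPM (log2 fold change 1.31, adjusted p = 8.4e-05). The part of these markers in the results was not tested. In bulk RNA, fewer cells with a transcript and less of it in each cell cannot be told apart.

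WNT proteins are secreted, lipid-modified ligands that bind Frizzled receptors at the cell surface. In the canonical branch, Frizzled and its co-receptors LRP5 and LRP6 recruit Dishevelled, a destruction complex built on AXIN and APC stops marking beta-catenin for degradation, and beta-catenin enters the nucleus and works with TCF/LEF factors on target genes. In the non-canonical branches, ligands such as WNT5A act with Frizzled and ROR receptors on cell polarity, the cytoskeleton and calcium signalling. WNT signalling is known in prostate cancer for its links to invasion, bone metastasis and resistance to therapy.

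Ligands and receptors of the WNT pathway were called in both directions in GCNT1 OE cells. A gene was called when its adjusted p was under 0.05 and its absolute log2 fold change was at least 0.58. By this rule 9 of the 42 genes (21.4%) were called, against 19.3% of all genes tested, so the share of WNT genes called was near the background. WNT9A, WNT10B, FZD8 and AXIN2 were called higher in GCNT1 OE cells (4 of 42, background 8.28%). WNT5A, WNT7B, FZD1, LGR4 and RNF43 were called lower (5 of 42, background 11.1%). On the adjusted p alone, 29 of the 42 passed, 11 of them higher and 18 lower, against 57.6% of all genes (28.3% higher and 29.3% lower). The median log2 fold change was -0.14 over the 42 genes and 0.001 over all genes. Scaling by library size alone moved the median of all genes to 0.06 and that of the 42 genes to -0.08. In 30 of the 42 genes the CPM of the 3 control and 3 GCNT1 OE libraries did not overlap, against 62.5% of all genes.

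**Figure D1:**
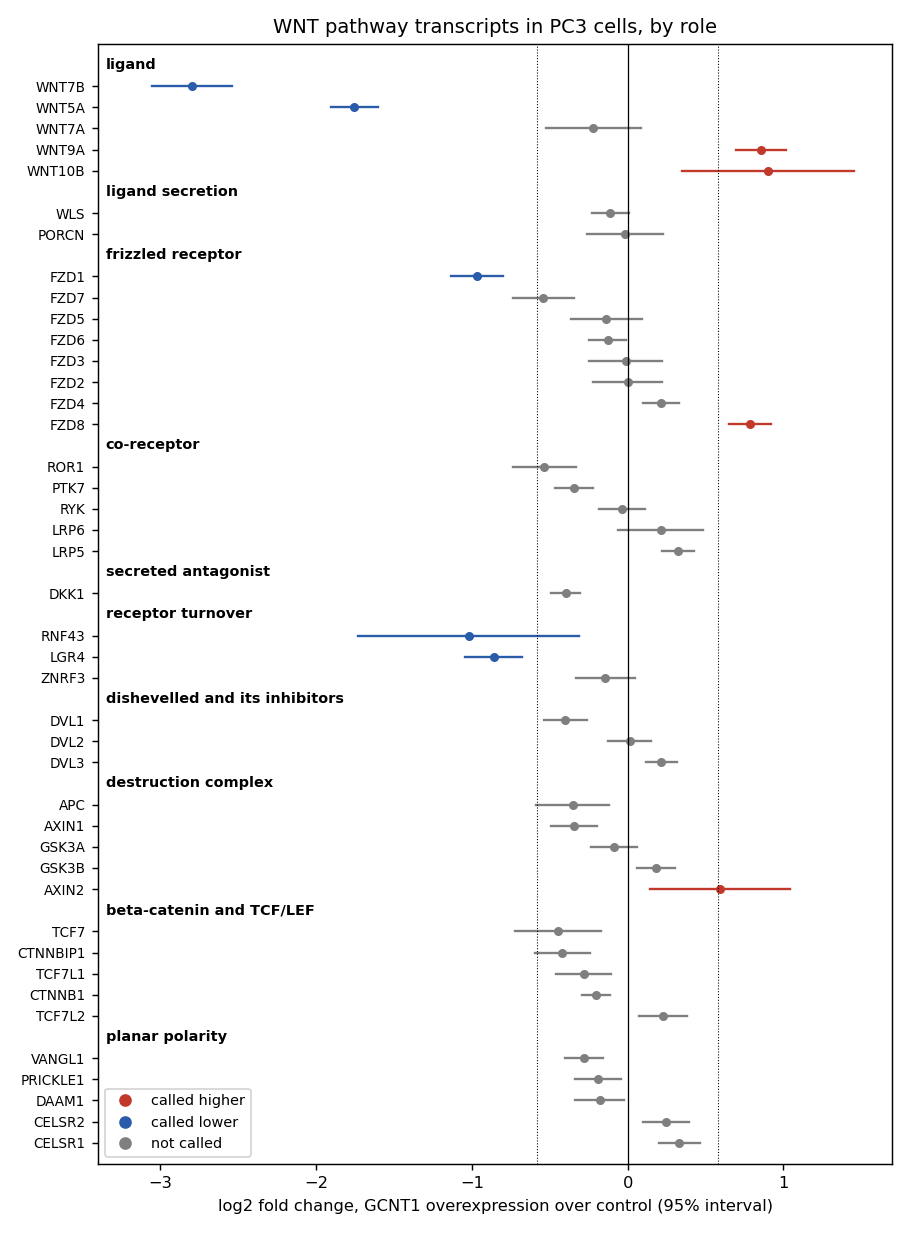
Log2 fold change of the 42 WNT genes, GCNT1 OE over control, grouped by role, with bars for the 95% confidence interval. Dotted lines mark a log2 fold change of 0.58 in either direction, and colours mark the genes called higher (4), called lower (5) and not called. WNT7B at -2.80 and WNT5A at -1.76 lie farthest to the left and WNT10B at 0.90 farthest to the right.

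The DNA just before a transcription start of 4 of these genes is printed because their products lead the results. WNT5A and WNT9A are the 2 ligands with the highest level per kilobase of exon in control and in GCNT1 OE cells respectively. FZD8 is the Frizzled with the highest level in both, and DKK1 has the highest level of all 42 genes. Each stretch is the 250 bases before a transcription start in RefSeq on GRCh38.p14, printed 5′ to 3′ on the strand of the gene. For DKK1, WNT9A and FZD8 that start is the outer end of the gene. For WNT5A it lies inside the gene, which spans 55465715 to 55505263. Capitals mark a match to CTTTGAT or CTTTGAA, the core letters bound by TCF/LEF factors.
DKK1, chr10:52314031-52314280, plus strand: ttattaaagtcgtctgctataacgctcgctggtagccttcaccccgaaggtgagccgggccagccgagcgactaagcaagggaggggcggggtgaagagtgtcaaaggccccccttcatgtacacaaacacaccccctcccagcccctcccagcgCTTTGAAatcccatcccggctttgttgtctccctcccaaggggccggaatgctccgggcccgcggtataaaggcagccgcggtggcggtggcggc
WNT9A, chr1:227947933-227948182, minus strand: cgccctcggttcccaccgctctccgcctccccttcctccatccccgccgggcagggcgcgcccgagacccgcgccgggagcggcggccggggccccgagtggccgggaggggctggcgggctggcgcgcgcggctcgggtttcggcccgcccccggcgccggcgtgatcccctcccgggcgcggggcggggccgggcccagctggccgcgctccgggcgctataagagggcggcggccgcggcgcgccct
WNT5A, chr3:55487307-55487556, minus strand, the upstream start of 2 in the table: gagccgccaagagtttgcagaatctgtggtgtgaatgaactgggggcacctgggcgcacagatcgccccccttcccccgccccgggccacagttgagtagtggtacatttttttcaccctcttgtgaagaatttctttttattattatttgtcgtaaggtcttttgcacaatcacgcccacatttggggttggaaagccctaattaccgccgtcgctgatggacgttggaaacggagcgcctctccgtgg
FZD8, chr10:35642297-35642546, minus strand: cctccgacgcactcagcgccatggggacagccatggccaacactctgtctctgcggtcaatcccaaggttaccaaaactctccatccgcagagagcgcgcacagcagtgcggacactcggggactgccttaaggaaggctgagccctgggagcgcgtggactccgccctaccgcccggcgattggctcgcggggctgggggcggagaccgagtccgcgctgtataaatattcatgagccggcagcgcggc
Windows were matched for 32 of the 42 genes and 40 of the 54. WNT7B, WNT10B and AXIN2 are called genes that were not matched. Searched on both strands, with no position in common between the 2 motifs, DKK1 held the only match in the 52 windows of the 40 genes, and 2086 of 35116 RefSeq windows (5.94%) held at least 1. The match in DKK1 lay 95 to 89 bases before the start, on the strand of the gene. These are letter matches, not shown to be bound. The GC content was 84.4% before WNT9A, with 44 CpG pairs, 65.2% before FZD8, with 24, and 62.8% before DKK1, with 18. Before the start inside WNT5A it was 52.8%, with 14 CpG pairs. The medians over all windows were 58% and 11.

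Of 9 WNT ligands listed, 5 were read, 4 of them were called, and these split evenly by direction. Of all genes, 19.3% were called, 8.28% higher and 11.1% lower. WNT5A, the ligand best known for non-canonical signalling, fell. It was read at 800, 771 and 695 counts in control libraries 1 to 3 and at 197, 257 and 264 counts in GCNT1 OE libraries 1 to 3. The lowest control library had more than the highest GCNT1 OE library, and the mean level fell from 61.4 ± 2.43 to 18.1 ± 0.975 CPM (SD, n = 3 in each group), 3.38-fold (log2 fold change -1.76, SE 0.07, adjusted p = 3.09e-10 by edgeR). WNT5A (Entrez 7474) lies at chromosome 3, 55465715 to 55505263 of hg38.

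WNT7B fell most of the 42 genes. It is a ligand known mainly for canonical signalling, with reported roles in bone formation. Its counts were 318, 358 and 333 in control libraries and 52, 57 and 46 in GCNT1 OE libraries. The groups were far apart, at 27.4 ± 1.87 CPM in control and 3.97 ± 0.636 CPM in GCNT1 OE cells, a 6.94-fold fall (log2 fold change -2.80, SE 0.12, adjusted p = 5.52e-10 by edgeR). WNT7B (Entrez 7477) lies at chromosome 22, 45920366 to 45977162. Its close paralogue WNT7A was read at 96, 131 and 125 counts in control and 107, 105 and 111 in GCNT1 OE libraries. These ranges overlap, and the log2 fold change was -0.22 (95% confidence interval -0.52 to 0.08, adjusted p = 0.20), which leaves room for a modest change in either direction.

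WNT9A rose in every GCNT1 OE library. This ligand is known from joint and limb development. Its counts were 343, 319 and 292 in control and 585, 603 and 655 in GCNT1 OE libraries, or 25.9 ± 1.29 and 47.0 ± 3.36 CPM, 1.81-fold higher (log2 fold change 0.86, SE 0.07, adjusted p = 6.41e-07 by edgeR). WNT9A (Entrez 7483) lies at chromosome 1, 227918656 to 227947932. WNT10B, a canonical ligand linked to bone mass, rose at a much lower level. It had 17, 29 and 14 counts in control and 40, 45 and 35 in GCNT1 OE libraries, and 1.62 ± 0.619 CPM became 3.07 ± 0.519 CPM (log2 fold change 0.90, SE 0.26, adjusted p = 0.00866 by edgeR). Its groups came close, with 2.33 CPM in control library 2 and 2.48 CPM in GCNT1 OE library 3. The call was lost in glmTreat, which tests for a change beyond the fold threshold (adjusted p = 0.277). WNT10B (Entrez 7480) lies at chromosome 12, 48965340 to 48971735.

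The 5 ligands changed places in their summed level. To compare genes with each other, CPM were divided by the kilobases of merged exons of each gene. On that scale WNT5A made up 37.1% ± 1.55 of the summed ligand level in control cells and 14.1% ± 1.53 in GCNT1 OE cells (SD, n = 3). The share of WNT7B went from 23.3% ± 1.37 to 4.32% ± 0.576. The share of WNT9A went from 27.9% ± 1.64 to 64.9% ± 1.53, which made it the highest of the 5 in each GCNT1 OE library, where WNT5A had been highest in each control library. WNT7A held 9.12% and 10.1%, and WNT10B 2.67% and 6.53%. The sum itself was 23.2 ± 0.661 CPM per kilobase in control and 18.0 ± 1.05 in GCNT1 OE cells. Shares of a sum are tied to each other, so these are given as a description, with no test.

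**Figure D2:**
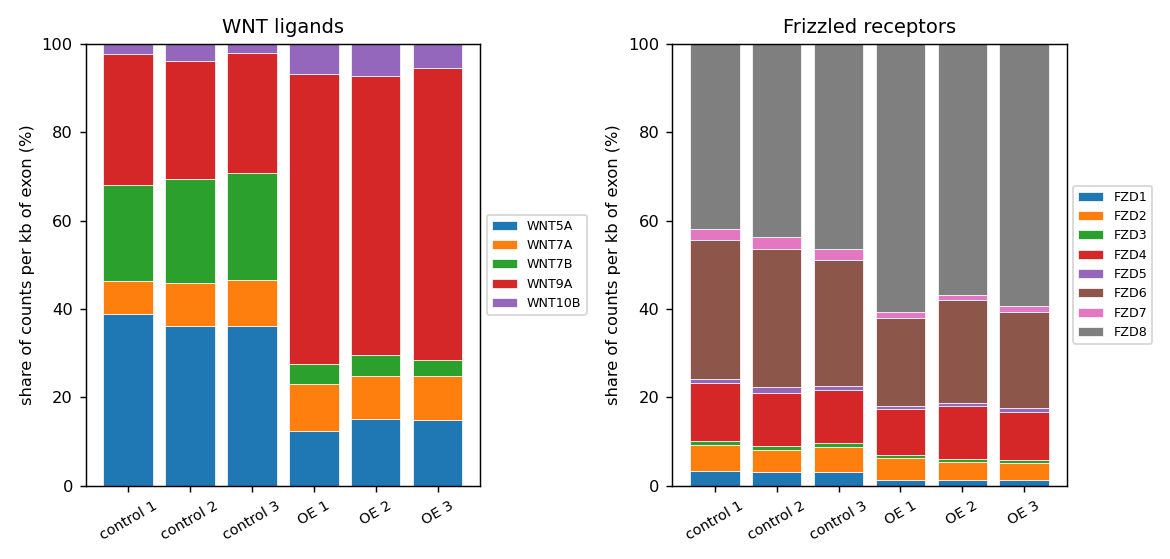
Share of each WNT ligand (left) and each Frizzled receptor (right) in the summed level of its group in each of the 6 libraries, from CPM per kilobase of exon, in percent. WNT5A and WNT7B shrink and WNT9A grows in every GCNT1 OE library, and FZD8 grows while FZD6 shrinks.

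A ratio of counts within a library does not depend on how libraries are scaled. These ratios were chosen after their values were seen. There were 3.31, 2.73 and 2.66 counts of WNT7B per count of WNT7A in control libraries and 0.486, 0.543 and 0.414 in GCNT1 OE libraries. WNT5A over WNT9A was 2.33, 2.42 and 2.38 in control and 0.337, 0.426 and 0.403 in GCNT1 OE libraries. Both pairs were turned over in all 3 GCNT1 OE libraries.

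The 2 genes needed for ligand release were not called and did not pass the adjusted p. PORCN, which adds the lipid to WNT proteins, was read at 237, 237 and 284 counts in control and 270, 252 and 277 in GCNT1 OE libraries (log2 fold change -0.02, adjusted p = 0.904). WLS, which carries WNT proteins to the surface, was read at 1034, 1009 and 1018 counts in control and 895, 1016 and 1119 in GCNT1 OE libraries (log2 fold change -0.11, adjusted p = 0.0986), although the CPM of its groups did not overlap.

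Among the Frizzled receptors 8 of 9 were read, and FZD8 and FZD1 were called in opposite directions. FZD8 rose. It was read at 2684, 2845 and 2982 counts in control and 4808, 5135 and 5755 in GCNT1 OE libraries, and 231 ± 19.6 CPM became 399 ± 22.2 CPM, 1.73-fold higher (log2 fold change 0.79, SE 0.06, adjusted p = 2.71e-07 by edgeR). The groups were well apart, with 252 CPM in the highest control library and 374 CPM in the lowest GCNT1 OE library. FZD8 (Entrez 8325) lies at chromosome 10, 35638247 to 35642296, and 7.9% of its exonic length is overlapped by a long non-coding RNA on the other strand. FZD1 fell. Its counts were 352, 336 and 332 in control and 172, 193 and 193 in GCNT1 OE libraries, or 27.7 ± 0.604 and 14.2 ± 0.605 CPM, 1.95-fold lower (log2 fold change -0.97, SE 0.08, adjusted p = 2.96e-07 by edgeR). FZD1 (Entrez 8321) lies at chromosome 7, 91264433 to 91271326.

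FZD7 and FZD4 passed the adjusted p with smaller changes. FZD7 fell from 187, 192 and 178 counts to 126, 137 and 146 (log2 fold change -0.54, adjusted p = 0.000199), just inside the fold threshold. FZD4 rose by 0.22 (adjusted p = 0.00344), and 18.9% of its exonic length is shared with PRSS23 on the other strand. The other 4 did not pass, with log2 fold changes of -0.14 for FZD5, -0.13 for FZD6, -0.01 for FZD3 and -0.00 for FZD2. The summed Frizzled level was 129 ± 4.20 CPM per kilobase in control and 167 ± 3.77 in GCNT1 OE cells. FZD8 alone held 44.1% ± 2.30 of it in control and 59.0% ± 2.04 in GCNT1 OE cells, while FZD6 held 30.4% ± 1.67 and 21.5% ± 1.7. FZD8 gave 1.33, 1.39 and 1.63 counts per count of FZD6 in control libraries and 3.06, 2.44 and 2.73 in GCNT1 OE libraries.

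No co-receptor was called. LRP5, the canonical co-receptor with the higher level, rose by 0.32 on the log2 scale (adjusted p = 5.99e-05), from 180 to 193 CPM in control to 229 to 233 CPM in GCNT1 OE libraries. LRP6, its partner, was read at 440, 345 and 314 counts in control and 317, 512 and 540 in GCNT1 OE libraries, with overlapping groups (log2 fold change 0.21, adjusted p = 0.165). ROR1, a receptor of WNT5A, fell from 319, 306 and 286 counts to 167, 253 and 255 (log2 fold change -0.53, adjusted p = 0.000310). Its change crossed the fold threshold when GCNT1 OE library 2 was left out (-0.59) or GCNT1 OE library 3 was left out (-0.58). PTK7, a receptor of the planar polarity branch, fell by 0.34 (adjusted p = 0.000148), and RYK was at -0.04 (adjusted p = 0.668).

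GCNT1 OE library 1 had the lowest level of its group for LRP6, ROR1, LGR4, APC and AXIN2. Its deviations from the mean log2 level of the group were -0.31, -0.22, -0.21, -0.19 and -0.41. For RNF43, FZD2, PORCN, WNT7B and WNT10B it had the highest level of its group, with deviations of 0.48, 0.22, 0.20, 0.19 and 0.18. Over all genes with at least 8.295 kilobases of exon, which include APC and LRP6, the median deviation of that library was -0.06, against 0.04 and 0.02 in GCNT1 OE libraries 2 and 3 and 0.03, 0.01 and -0.04 in control libraries 1 to 3. The part of transcript length in these values was not tested.

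**Figure D3:**
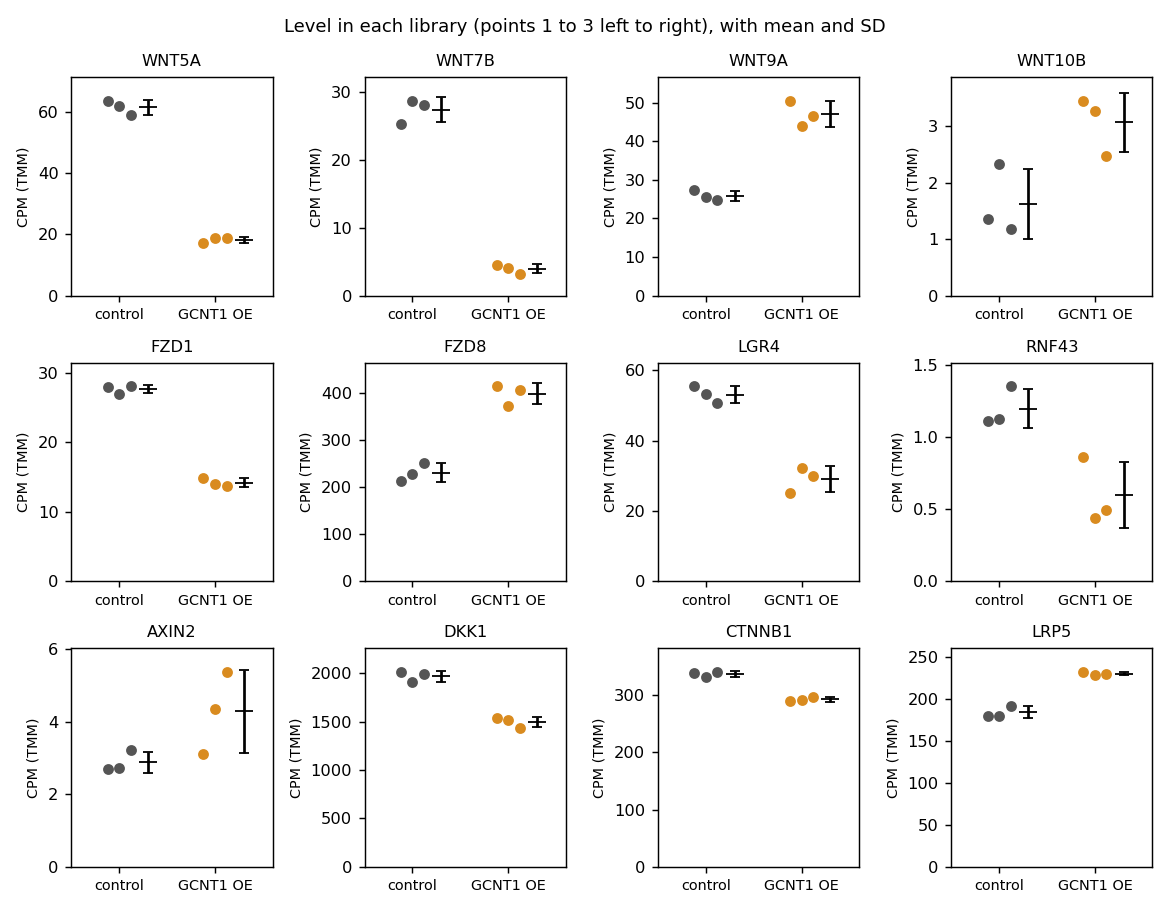
Level in CPM of selected WNT genes in each of the 6 libraries, 1 point per library with the mean and SD of each group as a cross and bars, on axes that start at 0. WNT5A, WNT7B, FZD1 and LGR4 are lower and WNT9A and FZD8 higher in every GCNT1 OE library, with no overlap, whereas the AXIN2 points overlap.

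DKK1 is a secreted antagonist that binds LRP5 and LRP6 and is known for blocking bone formation in metastases. It was the highest of the 42 genes per kilobase, at 887 CPM per kilobase in control and 673 in GCNT1 OE cells. It was read at 25358, 23721 and 23502 counts in control and 17765, 20800 and 20283 in GCNT1 OE libraries. The 3 GCNT1 OE libraries, at 1438 to 1535 CPM, were all below the control libraries, at 1905 to 2015 CPM. The change passed the adjusted p and not the fold threshold (log2 fold change -0.40, SE 0.04, adjusted p = 4.47e-06 by edgeR). In its exons 10.2% of the length is shared with PRKG1-AS1 on the other strand.

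Of the 3 genes that set how long Frizzled stays at the surface, 2 were called lower, as were 11.1% of all genes, and the call of RNF43 was lost in 5 of 13 alternative settings. LGR4, an R-spondin receptor that protects Frizzled from removal, was read at 698, 661 and 599 counts in control and 290, 443 and 424 in GCNT1 OE libraries. It fell from 53.1 ± 2.40 to 29.1 ± 3.69 CPM with no overlap, 1.82-fold (log2 fold change -0.86, SE 0.08, adjusted p = 1.90e-06 by edgeR). LGR4 (Entrez 55366) lies at chromosome 11, 27365961 to 27472790. RNF43, a ubiquitin ligase that removes Frizzled, was near the floor, with 14, 14 and 16 counts in control and 10, 6 and 7 in GCNT1 OE libraries. Its 1.2 ± 0.136 CPM became 0.599 ± 0.231 CPM (log2 fold change -1.02, SE 0.33, adjusted p = 0.0173 by edgeR). Settings that ended this call include DESeq2 (adjusted p = 0.0987) and leaving out control library 3, GCNT1 OE library 2 or GCNT1 OE library 3 (adjusted p 0.0537, 0.0724 and 0.0635). RNF43 (Entrez 54894) lies at chromosome 17, 58352500 to 58417534, and 68.4% of its exonic length is shared on the same strand with a second protein-coding gene model, so its counts are uncertain. ZNRF3, the ligase of the same kind with the higher level, was at -0.14 (adjusted p = 0.177).

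Dishevelled, which carries the signal inward from Frizzled, has 3 forms and all were read. DVL1 fell by 0.40 (adjusted p = 0.000156) and DVL3 rose by 0.22 (adjusted p = 0.00151), while DVL2 was at 0.01 (adjusted p = 0.878). The 50 analysed genes nearest on the chromosome had median log2 fold changes of -0.32 for DVL1, 0.23 for DVL3 and 0.13 for DVL2. The changes of DVL1 and DVL3 were thus close to those of their neighbours. Within a library, DVL1 gave 0.891, 0.905 and 0.998 counts per count of DVL3 in control and 0.680, 0.554 and 0.595 in GCNT1 OE cells. Per kilobase of exon, DVL1 was at 40.1 CPM in control and 30.4 in GCNT1 OE cells, and DVL3 at 26.5 and 30.8.

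In the destruction complex, AXIN2 was called higher at a low level. AXIN2 is a scaffold of the complex and a well-known target of beta-catenin itself. Its counts were 34, 34 and 38 in control and 36, 60 and 76 in GCNT1 OE libraries, and 2.88 ± 0.288 CPM became 4.29 ± 1.14 CPM (log2 fold change 0.59, SE 0.21, adjusted p = 0.0261 by edgeR). The groups overlap, since GCNT1 OE library 1 at 3.11 CPM was below control library 3 at 3.21 CPM. Without GCNT1 OE library 3 the log2 fold change was 0.39 (adjusted p = 0.147), and the call was lost in 8 of 14 alternative settings, DESeq2 (adjusted p = 0.0674) and the replicate block (log2 fold change 0.57) among them. AXIN2 (Entrez 8313) lies at chromosome 17, 65528563 to 65561648, and 25.3% of its exonic length is shared on the same strand with another protein-coding gene model. AXIN1, the scaffold with the higher level, fell by 0.34 (adjusted p = 0.000839). APC fell by 0.35 (adjusted p = 0.0137) with overlapping groups, from 682, 608 and 467 counts to 374, 556 and 546. The kinase genes were at 0.18 for GSK3B, which rose (adjusted p = 0.0143), and -0.09 for GSK3A (adjusted p = 0.287). The median of the 50 nearest analysed genes was 0.25 for GSK3B and -0.11 for GSK3A.

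All 5 genes read for beta-catenin and its nuclear partners passed the adjusted p, which 57.6% of all genes did, and none passed the fold threshold. CTNNB1, which encodes beta-catenin, was read at 4266, 4124 and 4028 counts in control and 3350, 3996 and 4183 in GCNT1 OE libraries. Scaled for depth, it was 337 ± 5.06 CPM in control and 292 ± 3.70 CPM in GCNT1 OE cells (log2 fold change -0.21, 95% confidence interval -0.30 to -0.11, adjusted p = 0.000993 by edgeR). CTNNBIP1, which keeps beta-catenin off TCF, fell by 0.42 (adjusted p = 0.000634). Of the TCF genes, TCF7 fell by 0.45 (adjusted p = 0.00950) and TCF7L1 by 0.28 (adjusted p = 0.00952), and TCF7L2 rose by 0.23 (adjusted p = 0.0140).

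Of 6 planar polarity genes, 5 were read and none was called. The receptors CELSR1 and CELSR2, large cadherins of the polarity complex, rose by 0.33 (adjusted p = 0.000423) and 0.25 (adjusted p = 0.00748). VANGL1 and PRICKLE1, their partners in the membrane and the cytoplasm, fell by 0.28 (adjusted p = 0.000932) and 0.19 (adjusted p = 0.0281). The median of the 50 nearest analysed genes was -0.2 for VANGL1 and 0.22 for PRICKLE1. DAAM1, a formin downstream of Dishevelled, was at -0.18 (adjusted p = 0.0510).

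Each gene was also set beside the 50 analysed genes nearest to it on its chromosome. The medians of these neighbours ran from -0.32 to 0.31 on the log2 scale, and were beyond 0.2 in size for 10 of the 42 genes. Among called genes this held for WNT10B, with neighbours at 0.31 beside its own 0.90. For WNT7B the neighbours were at -0.16, for WNT5A at 0.08, for WNT9A at 0.04, for FZD8 at 0.11 and for FZD1 at 0.07. When the median of the neighbours was subtracted, 9 genes were past the fold threshold with an adjusted p under 0.05, 4 higher and 5 lower. The adjusted p was carried over from the main test, so only the fold threshold was applied anew. WNT10B was then at 0.593, beside the threshold of 0.58. The 42 genes lie on 16 chromosomes.

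**Figure D4:**
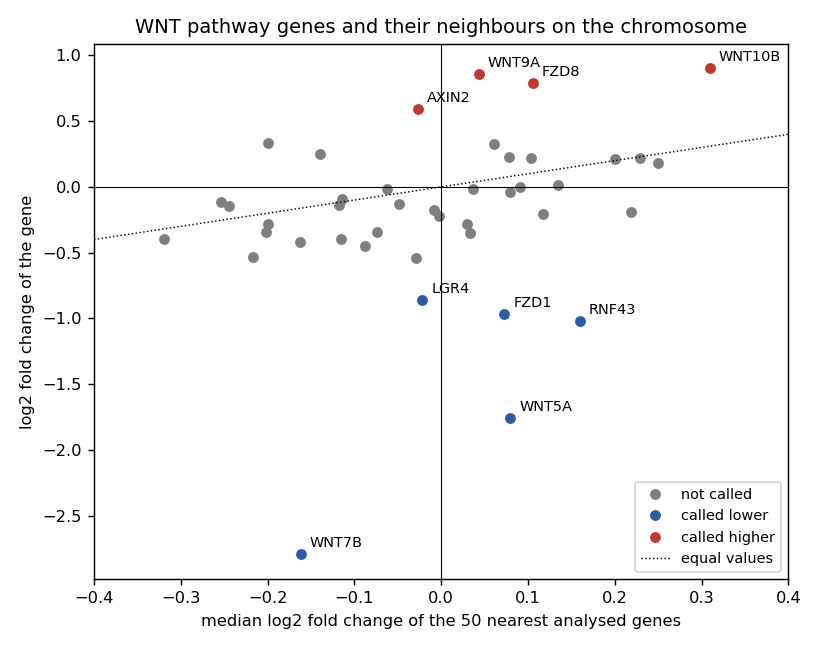
Log2 fold change of each of the 42 WNT genes (vertical axis) against the median log2 fold change of its 50 nearest analysed genes (horizontal axis). The dotted line marks equal values; the neighbour medians stay between -0.32 and 0.31 whereas WNT7B and WNT5A lie at -2.80 and -1.76.

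The rest of the pathway was read from 7 lists of further WNT genes written from general knowledge. Of 174 genes listed, 126 were read and 37 (29.4%, background 19.3%) were called, 11 higher and 26 lower (background 8.28% and 11.1%). On the adjusted p alone 27 of the 126 were higher and 59 lower, against 28.3% and 29.3% of all genes. Scaled by library size alone, 14 of the 126 were called higher and 23 lower. Under that scaling 1283 of all 12703 genes were called higher and 1230 lower. The 11 genes of the list of other WNT ligands and FZD10 were not analysed here. Of the genes read, LGR5, SOX9 and TIAM1 stand in 2 lists.

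Of 30 other secreted or surface modulators, 13 were read, 2 were called higher and 6 lower (61.5% called, against 19.3% of all genes). SHISA2, of a family that holds Frizzled in the endoplasmic reticulum, was read at 102, 110 and 106 counts in control and at 0 in all GCNT1 OE libraries, at least 36.1-fold lower when each GCNT1 OE library is set to the floor of 3 counts. TRABD2B, a membrane protease that cuts WNT proteins, went from 21, 14 and 18 counts to 0 in all 3, at least 6.01-fold lower. Both genes were thus detected in every control library and in no GCNT1 OE library. RSPO3, a ligand of the LGR receptors, fell from 32, 19 and 20 counts to 5, 5 and 3 (log2 fold change -2.51). LGR5, the R-spondin receptor that marks intestinal stem cells, fell from 1451, 1089 and 1170 counts to 523, 587 and 595 (log2 fold change -1.22, adjusted p = 1.07e-07 by edgeR). KREMEN1, a receptor for DKK1, was also lower, at -1.19. GPC4, a cell surface proteoglycan, was higher at 1.25.

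Of 32 other genes of the destruction complex and beta-catenin stability, 29 were read and 4 called (13.8%, against 19.3% of all genes). DACT1, which binds Dishevelled, had 155, 146 and 148 counts in control and 7, 13 and 18 in GCNT1 OE libraries (log2 fold change -3.65). Its relative DACT3 was lower at -1.62, from 30, 21 and 36 counts to 10, 8 and 12. The deubiquitinase USP34 was at -0.59 with neighbours at -0.53, and the kinase CSNK1G1 was at 0.59.

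Of 25 nuclear cofactors, 23 were read, 4 were called higher and 3 lower (30.4% called, against 19.3% of all genes). SOX9 and TLE2 fell, at -1.07 and -1.0, and SOX7, TLE4 and NLK rose, at 0.92, 0.73 and 0.71. TLE2 and TLE4 are both corepressors of TCF, so members of 1 family moved apart. PYGO1, a coactivator of beta-catenin, was lower at -0.69. SOX7 shares 39.4% of its exonic length with PINX1 on the same strand.

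Of 14 catenins and cadherin partners, 12 were read and 2 were called, both lower (16.7%, against 19.3% of all genes). CTNND2, which encodes delta-catenin, had 103, 119 and 92 counts in control and 2 in each GCNT1 OE library, below the floor of 3 counts. The ratio of summed counts per library size was 53.8-fold (exact 95% interval 24.4 to 148, counting error only), and is uncertain at these counts. The 50 genes nearest to CTNND2 had a median log2 fold change of -0.85. CDH1, which encodes E-cadherin and binds beta-catenin at the membrane, fell from 56, 43 and 34 counts to 15, 14 and 14 (log2 fold change -1.71).

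Of 37 planar polarity and non-canonical effectors, 30 were read, 3 were called higher and 6 lower (30% called, against 19.3% of all genes). NFATC1, a transcription factor driven by calcium, was at -1.39 and the kinase gene ROCK2 at -1.11, with neighbours of ROCK2 at -0.50. CAMK2B was at -0.90, SEC14L2 at -0.78, PLCB4 at 0.65 and INTU at 0.60.

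Of 30 transcripts known to rise with beta-catenin and TCF in other tissues, 22 were read, 1 was called higher and 8 lower (40.9% called in all, against 19.3% of all genes, of which 8.28% were higher and 11.1% lower). The median log2 fold change of the 22 was -0.24. The list holds none of the 42 genes, so the beta-catenin target AXIN2 is not counted in it. AXIN2 was called higher at 0.59, a call lost in 8 of 14 alternative settings. EPHB3, a receptor tyrosine kinase, fell from 754, 794 and 856 counts to 167, 190 and 194 (log2 fold change -2.22). TNFRSF19, a receptor of the TNF family, fell from 395, 382 and 313 counts to 70, 94 and 129 (log2 fold change -1.99). ID2 was lower at -1.43, with neighbours at -0.50, and LGR5 and SOX9 were lower as given above. MYC went the other way, from 1102, 1108 and 1163 counts to 2269, 2686 and 2456 (log2 fold change 1.04). These transcripts answer to many other signals, and no activity of the pathway was measured here.

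**Figure D5:**
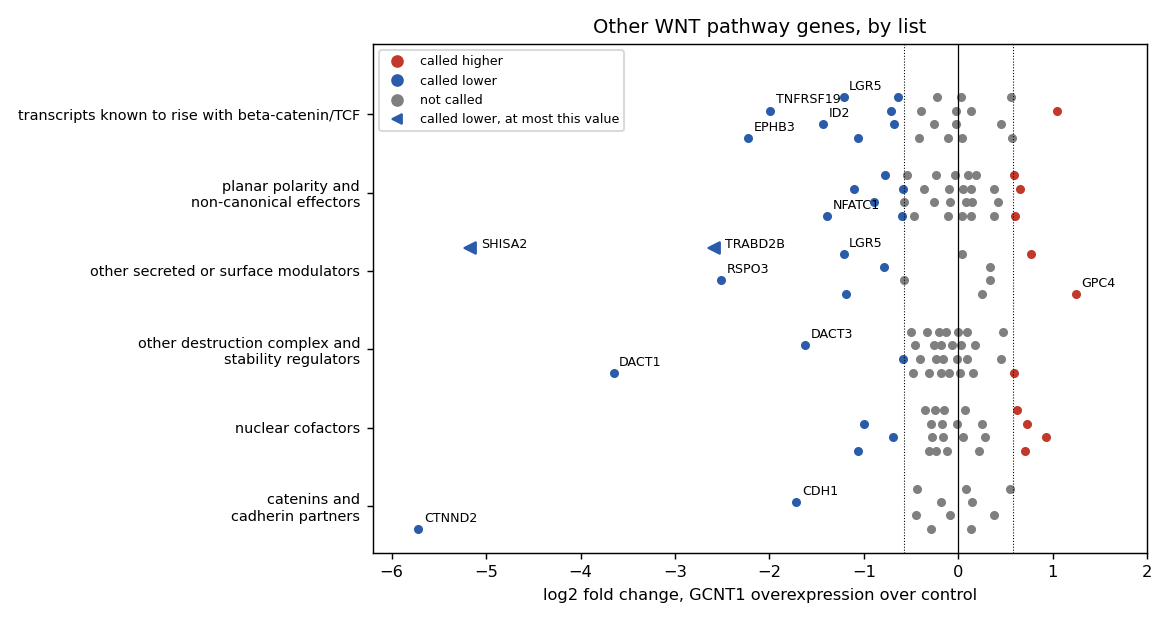
Log2 fold change of 126 further WNT pathway genes in 6 lists, GCNT1 OE over control, 1 point per gene; genes in 2 lists appear in both and the height within a list has no meaning. Arrowheads show SHISA2 and TRABD2B at their bounds, since both were at 0 in all GCNT1 OE libraries. Lower calls reach farther from 0 than higher calls, which end with GPC4 at 1.25.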

How the data were processed

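The authors prepared stranded mRNA libraries, removed adapters from single reads (Cutadapt), aligned the reads to hg38 (HISAT2), assigned them to genes (featureCounts) and ran limma-voom. They deposited raw read counts per gene, 1 column per library, neither normalized nor pooled. The annotation, the low-count filter and the strand setting of the counting are not given in the sources used here.

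Groups were taken from the sample labels. The test was the quasi-likelihood test of edgeR 4.0.16 (R 4.3.3) with TMM scaling and group as the only term, with no replicate block. Its p values were adjusted by Benjamini-Hochberg over all 12703 genes, since filterByExpr removed none. The common biological coefficient of variation was 0.0515 on 4 residual degrees of freedom. CPM are TMM-scaled, except that bounds use library size. Called genes had an adjusted p under 0.05 and an absolute log2 fold change of at least 0.58. Libraries of a group differed by more than sampling noise (chi-square per degree of freedom 1.65 to 5.57). Total counts set the depth, and floors and counting intervals cover counting error only.

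Exonic lengths and overlaps came from GENCODE 44, symbols were matched for 12661 genes, and promoters came from RefSeq on GRCh38.p14. Tests were checked on simulated data. The alternatives were limma-voom (limma 3.58.1), DESeq2 1.42.0, scaling by RLE factors or by library size alone, testing without the filter or with at least 10 counts in every library, glmTreat, the replicate block, subtraction of the neighbours' median and each library left out in turn. Called members are described in full, the other members by their values, and in each further list at most the 6 called genes with the largest change are named. The members, lists and tests were chosen with earlier results of these data known. Part of the marker check is not reported here.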

Additional observations from a re-analysis of the deposited data

How the results depend on the processing

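The test glmTreat, which asks for a change beyond the fold threshold itself, called 1392 of all genes in place of 2457 and 22 of the further pathway genes in place of 37. It called 6 of the 42 WNT genes in place of 9. With 1 library left out in turn the calls ranged from 2409 to 2511 for all genes, from 8 to 9 for the 42 genes and from 34 to 40 for the further genes. Over all alternatives the 42 genes gave 6 to 9 calls. WNT5A, WNT7B, WNT9A, FZD1, FZD8 and LGR4 kept their calls in all 14 alternatives, of which testing without the filter is the same fit as the main one, since the filter removed no gene. AXIN2 lost its call in 8 of 14, with log2 fold changes of 0.39 to 0.60 in those 8 and up to 0.76 over all 14, RNF43 in 5 of 13, since the filter at 10 counts drops it, and WNT10B in glmTreat alone (adjusted p = 0.277). GCNT1 passed in 8 of 13, with adjusted p of 0.011 to 0.396 over all 13. None of 138 refitted fold changes of these 10 genes changed sign.

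The replicate numbers of the labels gave no sign of a pairing: the deviations of same-numbered libraries had a mean correlation of -0.13. The mean for other numbers was 0.06. It follows from the first value, because deviations cancel out within a group, and is no separate comparison. With the replicate block 2423 of all genes, 8 of the 42 genes and 38 of the further genes were called, AXIN2 being the 1 of the 42 to lose its call. Depth limits the called genes RNF43, WNT10B and AXIN2, as well as GCNT1, all with fewer than 100 counts in every library.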
